A study of Sus scrofa with 6 samples.

Results

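Mitochondrial ribosomal proteins were followed in 2 pig muscles, the glycolytic longissimus dorsi muscle (LDM) and the oxidative psoas major muscle (PMM). A probe was taken when its description in the array files held both "ribosomal protein" and "mitochondrial", or when its gene name began with MRPL or MRPS, and control spots were left out. This rule found 29 of the 43603 probes, 28 of them by the description and 1, for MRPS11, by the gene name. The 29 probes stood for 24 genes, with 17 probes of 14 genes for the large subunit and 12 probes of 10 genes for the small subunit, out of 3478 genes that could be named on the array. The symbols were read from the descriptions, so the protein described as S29 is given as DAP3 and the one described as 63 as MRPL57.

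The LDM and PMM samples came from female Landrace pigs of 210 days, which had been off feed for 24 h, and neither muscle received any treatment. Both muscles were taken from each of 3 pigs, and 3 one-colour Agilent arrays were hybridized per muscle. The labels do not state that a replicate number is a pig, but it is the scan day in the array files. All values below are log2 signals relative to the 75th percentile of the array, and every log2 difference is PMM minus LDM. They are bulk tissue values, in which fewer cells of a type and less RNA per cell cannot be told apart.

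The mitochondrial ribosome translates the few proteins that are encoded by mitochondrial DNA, which are subunits of the respiratory chain and of ATP synthase. It is built from a large 39S and a small 28S subunit, whose proteins are all made from nuclear genes and imported from the cytosol. Oxidative fibres hold many mitochondria and slow myosin, whereas glycolytic fibres hold fewer, so the question put to the arrays was whether the proteins of this ribosome differ between the muscles as those of the respiratory chain do.

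All 29 probes were 60 bases long, and the array files placed none of them on a chromosome. Their GC content lay between 35% and 45%, with a median of 40%, which was also the median of all probes. The hexamer AATAAA, the canonical polyadenylation signal near the 3′ end of an mRNA, was searched in the sequences as given in the files. It stood in 8 of the 29 probes (27.6%), against 12.1% of all probes, and its reverse complement TTTATT stood in 2 of the 29 and in 4.63% of all probes. The 8 included both MRPL4 probes, which overlap and hold the same hexamer site. Overlapping probes were not merged in these counts. The following stretches of 30 bases are shown as examples of probes with the hexamer, and capitals mark the hexamer. The MRPS10 probe among them was not tested.
MRPL24 A_72_P406288: cctcttcttcagatgctAATAAAgagcctt
MRPL57 A_72_P120236: tcttctgaatgtAATAAAaatagtcaaaga
MRPS16 A_72_P020816: gaatgattctgtAATAAAtgtcaaatctag
MRPS10 A_72_P405873: cactgacttgagAATAAAtgatattttccg

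MRPL14 was covered by 3 probes that overlapped by 54 to 58 bases, so their values are repeat readings of nearly one target and not 3 independent ones. Over their overlaps, aligned without gaps, the pairs of probes differed at 3, 4 and 6 bases. The stretches of 30 bases cover part of the overlap, and capitals mark the one base that differs within them. Counted from 1 at the 5′ end of the stretch and against A_72_P435914, the substitution in A_72_P397013 was G7A.
MRPL14 A_72_P435914: agctgaGgtgcaagtccaatgcccatttat
MRPL14 A_72_P330383: agctgaGgtgcaagtccaatgcccatttat
MRPL14 A_72_P397013: agctgaAgtgcaagtccaatgcccatttat
The pair of MRPL4 probes shared 48 bases without a mismatch, of which 30 are shown, whereas the probes of MRPS10 and of MRPS33 shared no run longer than 5 bases.
MRPL4 shared: cacagagtcaggatcaatgtagtaggtaaa

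Across the series, 58.4% to 72.4% of the probes were well above background on an array, and the 75th percentile of the processed signal lay between 595 and 883 units. The extraction text of the labels speaks of adipose tissue, whereas the source is given as muscle. Of the 10 skeletal muscle genes listed for this check, 8 had a probe, and all 8 were well above background on all 6 arrays. Sums are given within a list only, since levels of different probes are not comparable. The summed relative signal of the 8 muscle genes was 3529 to 5589 in LDM and 4198 to 6679 in PMM. The summed signal of 7 adipocyte genes was 77.5 to 237 in LDM and 82.2 to 256 in PMM, and that of 4 connective tissue genes was 97.6 to 220 in LDM and 71.0 to 152 in PMM. The median log2 difference was -0.63 for the adipocyte genes, of which 5 of 7 were lower in PMM, -0.64 for the connective tissue genes, of which 4 of 4 were lower, and 0.34 for 6 endothelial genes, of which 6 were higher. It was 0.56 for 2 smooth muscle genes, both higher in PMM, and 0.13 for 4 leukocyte genes, of which 4 were higher. In limma with the replicate number as a block, an unadjusted p under 0.05 was found in 2857 of the 25835 tested probes. It was found in 4 of 7 adipocyte, 3 of 4 connective tissue and 2 of 2 smooth muscle genes. For skeletal muscle, endothelium and leukocytes it was found in 2 of 8, 1 of 6 and 0 of 4 genes. No probe was named for an erythrocyte marker. None of these genes passed the adjusted threshold, and their part in the results below was not tested.

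Of the 29 probes, 21 were tested, and all 21 were well above background on all 6 arrays. They covered 17 genes, 9 of the large and 8 of the small subunit. The other 8 probes were below this detection level on at least 1 array of each muscle, and 5 of them on every array. These 5 belonged to MRPL12, which also binds the mitochondrial RNA polymerase, and to MRPL30, MRPL36, MRPS18C and MRPS23. The probe of MRPL1, a protein of the mobile L1 stalk, was above background only on the replicate 2 array of each muscle. The same held for the second probe of MRPS10, the one with AATAAA above, and the MRPL3 probe was above background on LDM replicate 1 alone. No order between the muscles was read for these 8 probes.

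No mitochondrial ribosomal protein passed the test for a difference between LDM and PMM. In limma, with Benjamini-Hochberg adjustment over all 25835 probes tested, 0 of the 21 probes passed an adjusted p of 0.05, where 8 probes of the whole array did (0.031%). The lowest unadjusted p was 0.292, and none was under 0.05. With the replicate number as a block, 0 of the 21 passed, against 17 of all probes (0.0658%), and the lowest adjusted p was 0.516. The 3 PMM values lay above all 3 LDM values in 0 of the 17 genes (3.11% of all tested probes) and below them in 0 genes (2.89%). A log2 difference of at least 0.5 was also seen in 0 of the 17 genes, against 7.42% of all tested probes.

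The log2 differences of the 17 genes ran from -0.20 for MRPL45 to 0.37 for MRPL47, or from 0.869-fold to 1.30-fold PMM over LDM. Their median was 0.10, or 1.07-fold, and 11 of 17 were positive, while the median of all tested probes was -0.04 and 44.2% of them were positive. Higher values in PMM at all 3 replicate numbers were found in 4 of 17 genes (16.4% of all probes with 6 values), and lower values at all 3 in 1 gene (19.4%). The median stayed positive under the other scalings tried (quantile 0.07, median centring 0.04, percentile over detected probes 0.13), but its direction depended on the background correction and on single arrays. With normexp background correction it was -0.02 with 8 of 17 genes positive, although 59.6% of all probes were then positive and their median moved up to 0.10, and without PMM replicate 1 it was -0.11 with 7 of 17 positive. Without LDM replicate 3 it was 0.01, without LDM replicate 1 it was 0.22, and without PMM replicate 3 it was 0.33.

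**Figure D1:**
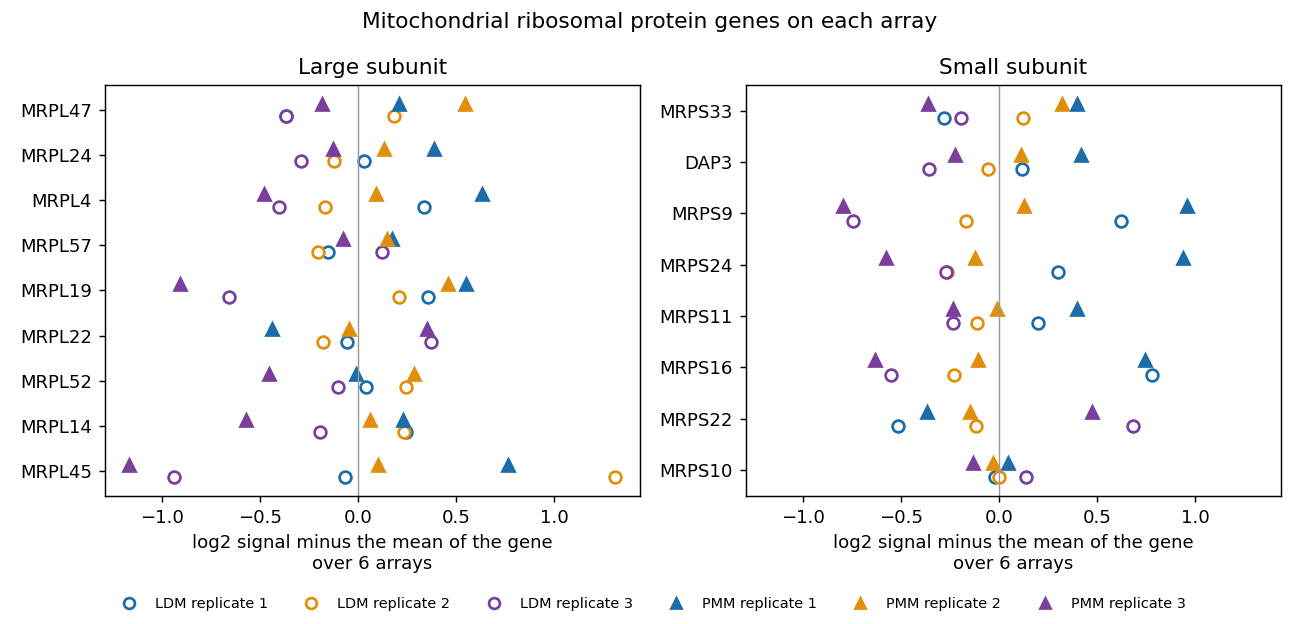
Log2 signal of each of the 17 tested genes on each array, relative to the mean of that gene over the 6 arrays, for the large subunit (left) and the small subunit (right). Open circles are LDM and filled triangles PMM, colours are replicate numbers, and genes are ordered by their log2 difference. The muscles overlap in every gene, and in 13 of 17 genes the mean of the replicate 3 arrays is the lowest. The share of all tested probes with this order was not counted.

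Among the large subunit proteins, MRPL47, the relative of bacterial L29 beside the exit of the peptide tunnel, had the largest difference. Here and below, values are in the order of the replicate numbers. Its log2 signal was 2.63, 3.18 and 2.63 in LDM and 3.21, 3.55 and 2.82 in PMM. PMM was higher at every replicate number, but the lowest PMM array lay below the highest LDM array. The log2 difference was 0.37 (SE 0.33, adjusted p = 0.99998 in limma), and the exact two-sided permutation test gave p = 0.2, where 0.1 is the smallest p that 3 against 3 arrays allow.

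MRPL24, a relative of a bacterial protein that starts the assembly of the large subunit, measured 5.15, 5.0 and 4.83 in LDM and 5.51, 5.25 and 4.99 in PMM. Its PMM array was again the higher one at each number, by 0.36, 0.26 and 0.16, while the groups overlapped. The log2 difference was 0.26 (SE 0.30, and 0.16 with the replicate block). MRPL4, which lines the peptide tunnel, measured 4.71, 4.21 and 3.98 in LDM and 5.01, 4.47 and 3.90 in PMM, and its overlapping second probe differed by 0.13 where the first differed by 0.16. MRPL57, which has no bacterial counterpart, differed by 0.16, with PMM higher at replicates 1 and 2 and lower at replicate 3.

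MRPL14, at the face of the large subunit that meets the small one, was the only gene lower in PMM at all 3 replicate numbers. It measured 3.52, 3.51 and 3.08 in LDM and 3.51, 3.33 and 2.70 in PMM, so that the muscles were closest at replicate 1 and farthest apart at replicate 3. The log2 difference was -0.19 (SE 0.33), and the probes that share most of its target gave -0.20 and -0.19.

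MRPL45, which ties the ribosome to the inner membrane, varied most and was also the dimmest of the 17 genes. Its mean log2 signal over the 6 arrays was -3.44, against a median of 3.00 for the 17. Its log2 signal was -3.51, -2.13 and -4.38 in LDM and -2.68, -3.34 and -4.61 in PMM, with differences of 0.83 at replicate 1 and -1.21 at replicate 2. The log2 difference of -0.20 had an SE of 0.65, the widest of the 17 genes, and became 0.40 without LDM replicate 2. MRPL19, MRPL22 and MRPL52 differed by 0.07, -0.09 and -0.12. MRPL22 lines the peptide tunnel together with MRPL4, and its difference pointed the other way, although neither was larger than its SE.

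Among the small subunit proteins, MRPS33 had the largest difference. It measured 4.39, 4.79 and 4.48 in LDM and 5.07, 4.99 and 4.31 in PMM, so that PMM replicate 3 was the lowest of the 6 arrays. The log2 difference was 0.24 (SE 0.33), and its second probe, which shares no run longer than 5 bases with the first, gave 0.22 (SE 0.35).

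DAP3, a GTP-binding protein of the small subunit that is also known from programmed cell death, measured 4.35, 4.18 and 3.87 in LDM and 4.65, 4.34 and 4.01 in PMM. PMM was the higher array at each replicate number, by 0.30, 0.17 and 0.14. The log2 difference was 0.20 (SE 0.32, and 0.16 with the replicate block). In both muscles replicate 1 was the highest array and replicate 3 the lowest.

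MRPS9, whose bacterial relative reaches the decoding centre, measured 3.06, 2.27 and 1.69 in LDM and 3.40, 2.57 and 1.64 in PMM. The difference of 0.19 (SE 0.52) was small beside the range of 1.56 between the replicate means of this gene. MRPS24, related to bacterial S3 at the entry of the mRNA, differed by 0.16, with 0.64 at replicate 1 and -0.31 at replicate 3. MRPS11, the gene found by its name alone, differed by 0.10 and was higher in PMM in all 3 pairs, by less than 0.01 at replicate 3.

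MRPS16, in which inherited mutations cause a combined deficiency of the respiratory chain, had a log2 difference of 0.0031 (SE 0.47). It measured 4.23, 3.22 and 2.90 in LDM and 4.19, 3.34 and 2.82 in PMM, so that both muscles carried the same large step between replicate 1 and the others. MRPS22, another disease gene of this kind, differed by -0.03 and MRPS10 by -0.08.

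**Figure D2:**
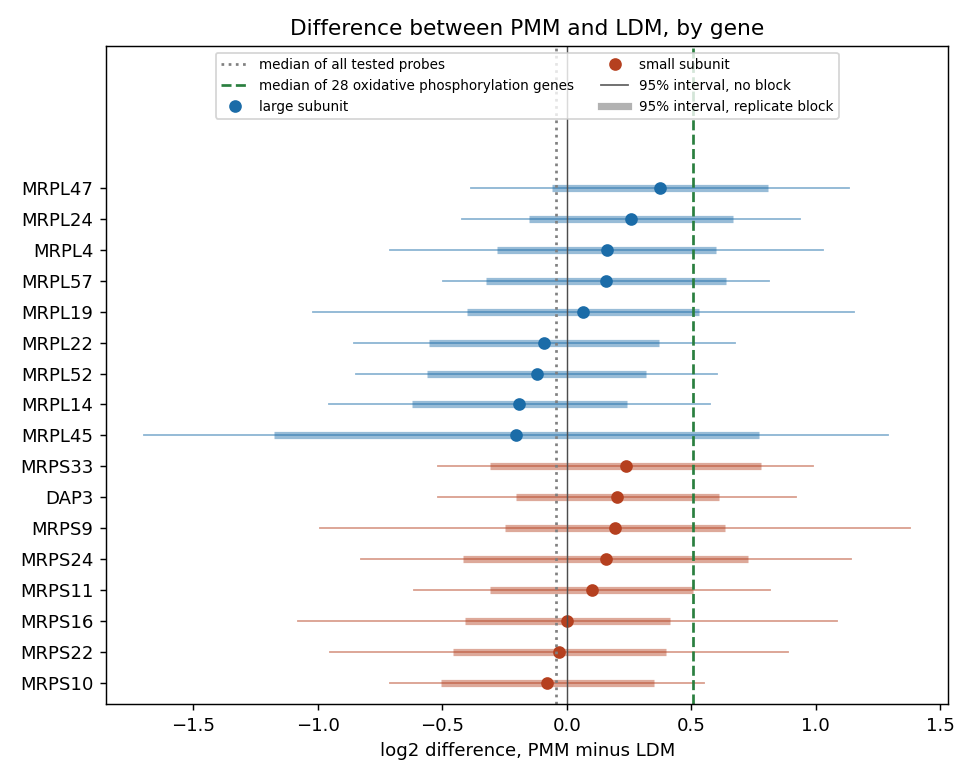
Log2 difference of PMM minus LDM for the 9 large subunit genes (blue) and the 8 small subunit genes (red), with 95% intervals without (thin) and with (thick) the replicate block. The dotted line is the median of all tested probes (-0.04) and the dashed line that of the oxidative phosphorylation genes (0.51). All intervals include 0 and all 17 points lie left of the dashed line.

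The subunits differed by less than the spread between pairs. The median log2 difference was 0.07 over the 9 large subunit genes, 5 of them positive, and 0.13 over the 8 small subunit genes, 6 of them positive. The small subunit exceeded the large one by 0.06, and taken within each replicate number this gap was -0.05, -0.12 and 0.08 (mean -0.03 ± 0.10, SD, n = 3 pairs). With normexp background correction the medians were 0.01 for the large and -0.02 for the small subunit. Without PMM replicate 1 they were -0.11 and -0.10, and without PMM replicate 3 they were 0.33 and 0.34.

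The replicate means were set beside the means of the muscles. In 15 of the 17 genes the range of the replicate means exceeded the difference between the muscles. The median range was 0.62 and the median absolute difference 0.16. A range over 3 means of 2 arrays tends to exceed a difference between 2 means of 3 arrays even without any replicate effect. The count therefore does not show that replicate numbers differed more than muscles. Replicate 1 was highest in 10 genes and replicate 3 was lowest in 13. Shares of all tested probes were not counted for these patterns. PMM was higher than LDM in 13 genes at replicate 1, in 13 at replicate 2 and in 4 at replicate 3, and the median difference of the 17 genes was 0.30, 0.14 and -0.17 at these numbers (mean 0.09 ± 0.24, SD, n = 3 pairs). The median level of the 17 genes was 3.06, 3.18 and 2.90 in LDM and 3.51, 3.33 and 2.81 in PMM. Replicate number and scan day coincide and cannot be told apart. Marker sums also changed with the replicate number. In the order of these numbers, the leukocyte sum was 4.10, 9.35 and 17.8 in LDM and 5.54, 10.2 and 15.5 in PMM. The endothelial sum was 54.9, 95.1 and 169 in LDM and 95.8, 110 and 165 in PMM. The sum of the muscle genes was lowest at replicate 2 in both muscles, with 3529 and 4198. The part of these changes was not tested. The arrays of replicate 1 lay on separate slides, whereas those of replicates 2 and 3 shared a slide within each number, and with the slide as a random block the median was 0.03 and 0 of 21 probes passed.

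The nuclear-encoded subunits of oxidative phosphorylation were set beside the ribosomal proteins. Their median log2 difference was 0.51, or 1.42-fold, over 28 genes, and 28 of 28 were positive. None passed the adjusted threshold without or with the block, while 12 of 28 had all PMM values above all LDM values, against 3.11% of all tested probes. ATP5G1, a membrane subunit of ATP synthase, measured 7.47, 7.46 and 7.78 in LDM and 8.47, 8.07 and 8.34 in PMM, which is a log2 difference of 0.72 (SE 0.29). NDUFA4, a respiratory chain subunit, measured 8.49, 8.40 and 8.23 in LDM and 9.39, 9.05 and 8.77 in PMM. In both genes every PMM array lay above every LDM array.

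All 17 ribosomal proteins lay below the median of the oxidative phosphorylation genes, and 23 of the 28 oxidative phosphorylation genes lay above MRPL47, the highest of the 17. The medians differed by 0.41, and by 0.33, 0.46 and 0.42 within replicates 1, 2 and 3 (mean 0.40 ± 0.07, SD, n = 3 pairs). This gap had the same sign at every replicate number and exceeded its spread between pairs. It stayed between 0.31 and 0.50 when single arrays were left out and was 0.35 with normexp background correction. The probes of the oxidative phosphorylation genes were brighter, with a median log2 signal of 7.35 against 3.00 for the ribosomal proteins. The part of probe brightness in the gap was not tested. At replicate 3, where 13 of the 17 ribosomal proteins were lower in PMM, 25 of the 28 oxidative phosphorylation genes were higher in PMM. For single genes the precision was low: the 95% interval lay wholly below 0.51 in 0 of the 17 genes, and in 6 with the replicate block. These 6 were MRPL14, MRPL22, MRPL52, MRPS10, MRPS16 and MRPS22. For the other 11 a difference as large as that of the respiratory chain lies within the interval. The value of 0.51 was taken as fixed, although it was estimated from the same arrays. Within replicates 1, 2 and 3 it was 0.63, 0.60 and 0.26. The intervals therefore do not test whether these 6 genes differed less than the oxidative phosphorylation genes.

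**Figure D3:**
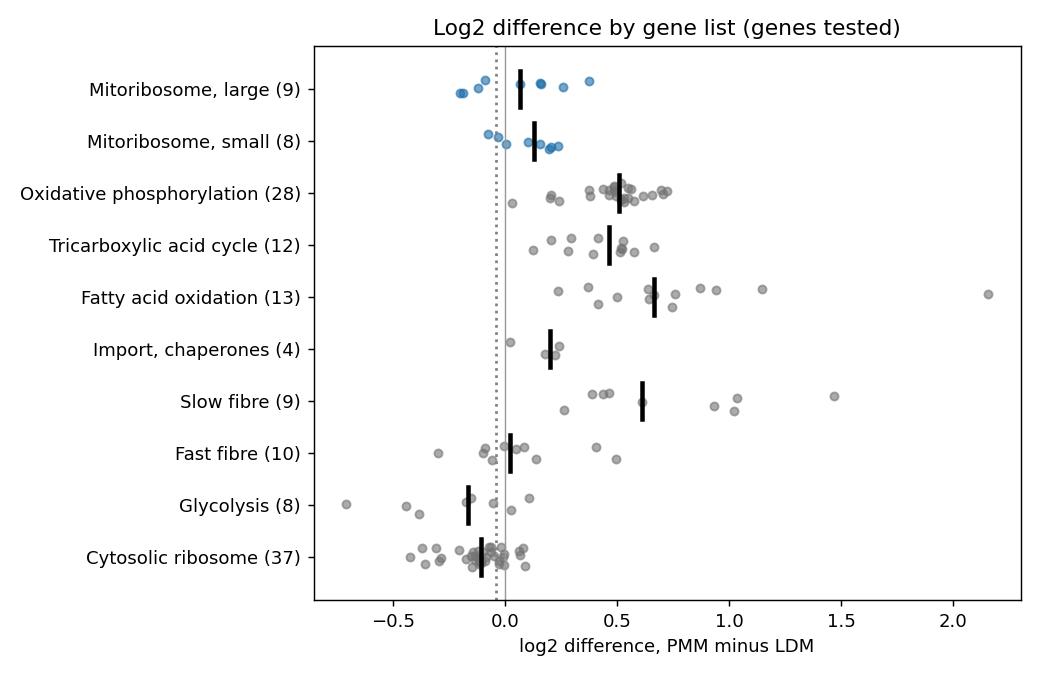
Log2 difference of PMM minus LDM for each tested gene (points) and its median (bars) in the mitochondrial ribosome and 8 other gene lists, with the number of genes tested in brackets, the dotted line at the median of all tested probes and vertical scatter only for visibility. The ribosomal proteins of the mitochondria lie between -0.20 and 0.37, to the left of most oxidative phosphorylation genes and overlap those of the cytosolic ribosome, whose median is -0.11.

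The other gene lists differed in the size of their medians. The 12 genes of the tricarboxylic acid cycle had a median of 0.46 and the 13 of fatty acid oxidation 0.67, and all of these were positive. FABP3 was put in the fatty acid oxidation list as a carrier of fatty acids in muscle cells, not as an enzyme of mitochondria. It measured 6.07, 6.47 and 5.22 in LDM and 8.75, 8.10 and 7.38 in PMM, or 2.16 higher. The 4 tested genes of protein import and folding had a median of 0.20, from 0.02 for HSPE1 to 0.24 for DNAJC19. Slow fibre genes had a median of 0.61 with 9 of 9 positive, led by myoglobin (MB) with 1.47, while fast fibre genes had 0.02 with 5 of 10 positive and glycolytic genes -0.16 with 2 of 8 positive. None of the genes in these lists passed the adjusted threshold.

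Genes listed as machinery of the mitochondrial ribosome were covered by few probes. The list of translation factors had 3 tested genes. SLIRP, which stabilizes mitochondrial mRNA, differed by 0.04, the release factor MTRF1 by -0.13 and MSS51 by -1.13. MSS51 was listed as a translational activator in yeast, and its role in pig muscle was not tested. It measured 5.73, 5.23 and 4.55 in LDM and 4.42, 4.38 and 3.32 in PMM. Each PMM array lay below all LDM arrays, a pattern of 2.89% of all tested probes. Its adjusted p was 0.99998 in limma and 0.184 with the block. Of 3 assembly genes, RMND1 differed by 0.31, RBFA by 0.07 and MTERF3 by -0.17. Genes of tRNA charging and modification were PUS1 with -0.18 and GATC with -0.07. A list of 5 tested genes found by their description, which repeats MTRF1 and was chosen after the files were opened, had a median of -0.02 with 2 of 5 positive, among them the recycling factor MRRF with 0.43.

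Regulators of mitochondrial biogenesis had differences of both signs. PPARGC1A, a coactivator that drives the making of mitochondria, measured 2.53, 2.08 and 1.79 in LDM and 3.79, 2.67 and 2.63 in PMM. Every PMM array lay above every LDM array, a pattern of 3.11% of all tested probes. The log2 difference was 0.90 (SE 0.41, adjusted p = 0.99998 in limma and 0.241 with the block). TFAM, the transcription factor of mitochondrial DNA, differed by 0.22 and was higher in PMM in all 3 pairs, and the kinase subunit PRKAA2 differed by -0.58. TFAM was listed under mitochondrial transcription and DNA maintenance, with SUPV3L1 at 0.33, and is not among the 8 regulators. Of these 8, 5 were positive, with a median of 0.25.

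**Figure D4:**
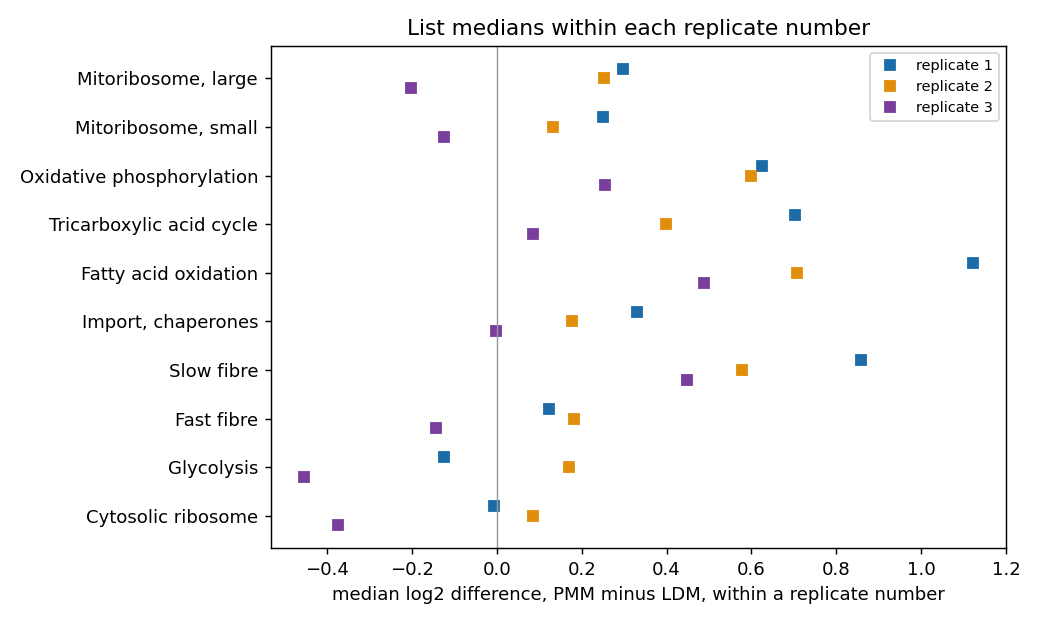
Median log2 difference of PMM minus LDM of each gene list, taken within replicate 1, 2 and 3 (coloured squares). The large and small subunit are positive at replicates 1 and 2 and negative at replicate 3 (-0.20 and -0.12), whereas oxidative phosphorylation is positive at all 3 (0.63, 0.60 and 0.26).

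The cytosolic ribosome gave a second reference. Of its 37 tested genes, 4 were positive, against 44.2% of all tested probes. The median was -0.11, with -0.01, 0.09 and -0.37 at replicates 1, 2 and 3. It was -0.28 with normexp background correction and 0.03 when replicate 3 of both muscles was left out of the fit with the block. Replicate 3 also gave the lowest of the 3 medians for all tested probes (-0.10) and for the other lists plotted by replicate number. RPS16 had the largest difference, -0.42. Its PMM arrays all lay below its LDM arrays, as in 3 of the 37 genes and 2.89% of all tested probes.

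The rule passed over probes that RefSeq names as mitochondrial ribosomal proteins but whose text on the array does not. There were 9 such probes, all tested, and they were added after the data had been seen. With them, 23 genes had a median of 0.08 and 15 were positive, and again 0 probes passed. MRPS31 was the one gene of the 23 with all PMM arrays above all LDM arrays, a pattern of 3.11% of all tested probes, at 0.58, 1.84 and 1.97 in LDM and 2.09, 2.07 and 2.02 in PMM, where LDM replicate 1 stood apart from the others. Its log2 difference was 0.59 (SE 0.41). MRPL15 lay at the other end with -0.34 (SE 0.68). MRPL3, whose probe under the rule was not tested, differed by 0.01 on its RefSeq-named probe, and a second probe of MRPS22 differed by 0.08 where the first differed by -0.03.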

How the data were processed

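Cy3-labelled RNA of LDM and PMM was measured on 6 one-colour arrays, 3 per muscle. The deposited intensity values were made by the authors' scanner software, Agilent Feature Extraction 10.5.1.1, which subtracted the background and marked outlier, saturated and well-above-background spots. They were not normalized between arrays. The authors also deposited a table of processed intensities of the same arrays, which was used as an alternative. The median of the 17 genes was 0.09998 from this table and from the scanner intensities, so it adds no independent check. From the intensities, control and outlier spots were left out, repeated spots averaged, and log2 minus the 75th percentile of the array taken. Probes well above background on all 3 arrays of either muscle, with at least 2 values per muscle, were tested in limma 3.58.1 (R 4.3.3), two-sided, with Benjamini-Hochberg adjustment over all 25835 probes. A gene was read from its brightest probe. Other genes were named from files or from RefSeq accessions and gene numbers (Sscrofa11.1, names only), which named 5073 probes.

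The members, gene lists and rule for named genes were chosen with earlier results of these data known. All called or non-overlapping genes, those of largest and smallest absolute difference and the brightest of each subunit were named, and up to 3 genes of each other list. P-values measure the spread between these samples. Deviations from the muscle mean correlated at 0.62, 0.70 and 0.56 between arrays of the same replicate number, and at -0.54 to -0.01 otherwise. Such deviations sum to 0 within a muscle, so positive values within numbers go with negative ones between them. Same-numbered arrays were treated as pairs in the replicate block and in the differences within replicate numbers. The main test used no block, and the SEs given for single genes come from it unless the block is named. With the block the SEs of the member genes ran from 0.16 to 0.39. The paper took both muscles from the same pigs but does not tie numbers to pigs. The test was first run on simulated data. No interval for depth applies to arrays, whose number limits the precision.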

Additional observations from a re-analysis of the deposited data

How the results depend on the processing

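In each of the 23 alternatives 0 member probes passed, while the number of all probes that passed was 8 as reported, 300 with the slide as a random block, 17 with the replicate block, 529 with the replicate block without replicate 1 and 0 to 9 otherwise. The replicate block (paired arrays) changed no call among the members, and their lowest adjusted p was 0.516. Of the 17 named genes, those that changed sign under normexp background correction were MRPL57 (-0.067), MRPL4 (-0.028), MRPS16 (-0.15), MRPS11 (-0.028), MRPS24 (-0.021), MRPL22 (0.070) and MRPL45 (0.24). Under this correction the median of all probes was 0.10 against -0.04. MRPS16 was -0.054 with median centring, and MRPS22 was 0.0019 with the percentile over detected probes. With the slide as a random block MRPS24 was -0.030 and MRPL22 0.026. With the RefSeq-named probes, an alternative chosen after seeing the data, MRPS22 was 0.077. By gene name alone 1 gene was left, and it was higher in PMM. In the replicate block without replicate 1, MRPS24 was -0.082 and MRPL22 0.058; without replicate 2, MRPS16 was -0.057, MRPL19 -0.027 and MRPL45 0.30; and without replicate 3, MRPS10 was 0.018 and MRPS22 0.057. Leaving out single arrays moved the gap between oxidative phosphorylation and members between 0.31 and 0.50, the number of genes higher in PMM between 7 and 14, and the small subunit median between -0.10 and 0.34. The ranges of single genes were -0.37 to 0.39 for MRPS16, -0.72 to 0.40 for MRPL45, -0.11 to 0.44 for MRPL4, -0.24 to 0.64 for MRPS9, -0.30 to 0.30 for MRPS22, -0.25 to 0.54 for MRPL19, -0.29 to 0.11 for MRPL22, -0.073 to 0.24 for MRPS11, -0.27 to 0.49 for MRPS24, -0.29 to 0.077 for MRPL52 and -0.35 to 0.049 for MRPL14. The cause of these changes was not tested. The standard errors were 0.28 to 0.65 without and 0.16 to 0.39 with the replicate block. They limit what 3 arrays per muscle can show, and 8 member probes near background have no order.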
